A study of Mus musculus with 8 samples.

Results

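A set of 8 genes that encode the pore-forming subunits of pacemaker and membrane excitability channels was examined in E9.5 mouse hearts. They were the hyperpolarization-activated channels Hcn2 and Hcn4, the L-type calcium channel Cacna1d, the T-type calcium channels Cacna1g and Cacna1h, the inward rectifier potassium channel Kcnj2, and the G protein-gated potassium channels Kcnj3 and Kcnj5. The genes were picked by symbol and matched to their Ensembl identifiers. All 8 were found among the 49315 genes of the count tables, and all 8 were among the 17163 genes with enough counts to be tested. No sodium channel pore subunit was among them.

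The hearts were wild-type or Tbx20EH1Mut, 4 libraries of each, and each library was made from poly-A RNA of 3 pooled whole hearts at embryonic day 9.5. Tbx20EH1Mut carries a pair of amino acid substitutions in the engrailed homology 1 domain of the T-box transcription factor Tbx20, the domain through which Tbx20 binds the TLE co-repressors. The line came from CRISPR/Cas9 editing of embryos from C57BL/6J oocytes and was crossed to C57BL/6J, so the allele is in every cell type of the heart. The labels give the genotypes as WT and MT, and the study uses the name Tbx20EH1Mut for homozygous mutants. The study used mice of both sexes, litter and sex of single libraries were not used here, and pooling hides the spread between single hearts. The question was how the transcripts of these channels differed between the genotypes.

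In the embryonic heart, beating starts before a sinoatrial node has formed, and the cells that drive it depolarize slowly between beats. HCN channels carry an inward current that opens on hyperpolarization and is raised by cyclic AMP, while T-type and L-type calcium channels add calcium current at low and moderate voltages. The inward rectifier Kcnj2 (Kir2.1) holds the resting potential of working myocardium, and Kcnj3 with Kcnj5 (GIRK1 and GIRK4) form the acetylcholine-activated channel that slows the beat.

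Of the 8 genes, Kcnj5 and Hcn4 fell in Tbx20EH1Mut hearts and none rose (Benjamini-Hochberg adjusted p of edgeR's quasi-likelihood test, over all genes tested). The mean level of Kcnj5 decreased by 48.8% and that of Hcn4 by 44.9%. Cacna1h and Kcnj3 were lower by similar amounts but varied more between libraries and did not pass the test, and the other 4 genes showed differences near 0 or with wide intervals. The 2 genes called lower are 2 of 8, and over the whole transcriptome 15.3% of genes were called lower, 14.0% higher and 29.3% in either direction, so a count of 2 of 8 is near the share of all genes. Both differences passed a log2 fold change of 0.5, as 24.6% of all genes did, and neither passed 1, as 10.8% did. The median log2 fold change of the 8 genes was -0.51, and that of all genes tested was 0.00. No channel gene lay near this median. Kcnj5, Cacna1h, Kcnj3 and Hcn4 stood between -0.97 and -0.86, and the other 4 between -0.16 and 0.40.

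To show what lies just upstream of the RefSeq transcription starts (GRCm38.p6) of the 2 genes that fell, the 250 bases before them are given for Hcn4 (chr9:58822699-58822948, plus strand) and Kcnj5 (chr9:32344345-32344594, minus strand). These starts are not the ends of the gene spans given below: that of Hcn4 lies upstream of its span and that of Kcnj5 just inside it. Kcnj3 (chr2:55435720-55435969, plus strand) is shown because it held the only motif match, which is in capitals.
Hcn4: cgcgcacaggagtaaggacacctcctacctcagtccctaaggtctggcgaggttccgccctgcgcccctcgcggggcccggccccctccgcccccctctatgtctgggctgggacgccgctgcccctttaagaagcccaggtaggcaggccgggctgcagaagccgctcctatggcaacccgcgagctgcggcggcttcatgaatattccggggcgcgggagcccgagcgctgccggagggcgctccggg
Kcnj5: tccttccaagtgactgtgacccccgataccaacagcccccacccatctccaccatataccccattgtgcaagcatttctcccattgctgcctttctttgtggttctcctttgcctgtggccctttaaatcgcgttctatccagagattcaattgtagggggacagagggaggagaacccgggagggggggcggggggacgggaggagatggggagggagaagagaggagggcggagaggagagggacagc
Kcnj3: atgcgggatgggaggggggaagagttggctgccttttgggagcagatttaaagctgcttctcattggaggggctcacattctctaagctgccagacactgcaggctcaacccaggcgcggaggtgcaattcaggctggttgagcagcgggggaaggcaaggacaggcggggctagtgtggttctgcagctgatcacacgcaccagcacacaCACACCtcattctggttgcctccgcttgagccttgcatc
The table of start sites held 7 starts for 6 of the 8 genes (Hcn2, Hcn4, Kcnj2, Kcnj3, Kcnj5 and 2 for Cacna1d). Both strands were searched for a T-box core (GGTGTG, or CACACC on the other strand), a GATA site (AGATAA or TTATCT) and an NK2 site (TNAAGTG or CACTTNA). Among 32851 promoters of this length, 16.3% held the T-box core, 9.99% the GATA letters and 10.1% the NK2 letters. The T-box core of Kcnj3 began 39 bases before the start, and the other 6 stretches held none of the 3 motifs. The upstream stretch of Hcn4 was 71.2% G or C, that of Kcnj5 58.0% and that of Kcnj3 58.4%, against a median of 52.4% over all promoters.

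Depth was 33359322 to 49523086 counts assigned to genes in the wild-type libraries and 36250675 to 38357025 in the Tbx20EH1Mut libraries. Levels are given as CPM, counts scaled by the size of each library. Tbx20 itself, whose level does not check the substitutions, was between 353 and 380 CPM in wild-type libraries and between 215 and 317 CPM in Tbx20EH1Mut libraries. The Tbx20 transcript was thus called lower, with a log2 fold change of -0.46 (adjusted p = 0.0273, edgeR's quasi-likelihood test). Summed over 10 cardiomyocyte markers, the level was 26466 to 37523 CPM in wild-type and 27141 to 41688 CPM in Tbx20EH1Mut libraries, and 1 of the 10 was called lower. Summed over 10 foregut epithelium markers it was 272 to 375 CPM in wild-type and 950 to 1185 CPM in Tbx20EH1Mut libraries, with 6 of 10 called higher and none at 0 in all libraries. Most of this sum came from Krt8, Krt18 and Krt19. Their means were 146, 67.4 and 93.0 CPM in wild-type and 445, 223 and 311 CPM in Tbx20EH1Mut hearts. Of the other foregut markers, only Shh did not overlap between the genotypes. The 8 erythroid markers summed to 1767 to 4612 and 327 to 1035 CPM, with 7 called lower. Endothelial markers summed to 512 to 612 and 597 to 662 CPM, with 4 of 8 called higher. The sums of the neuron list (2 higher and 1 lower of 7 tested), the neural crest list (1 higher of 5) and the epicardium list (1 higher and 1 lower of 6) overlapped between the genotypes. In whole hearts, fewer cells of a type and less RNA per cell cannot be told apart. The foregut covariate and levels relative to the cardiomyocyte markers are given below. Beyond these, the part of these cell types was not tested.

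Libraries also differed in how their counts depended on gene length. On a smooth trend through all genes tested, genes of 8769 exon bases stood 0.88 log2 units higher than genes of 1000 bases in wild-type replicate 2, relative to the mean of all libraries. The same difference was -0.25, 0.15 and 0.20 in wild-type replicates 1, 3 and 4, and -0.09, -0.15, -0.48 and -0.26 in Tbx20EH1Mut replicates 1 to 4. A trend on GC content ran lowest in Tbx20EH1Mut replicate 3 (-0.30) and highest in wild-type replicate 2 (0.17). Wild-type replicate 2 had the highest level of its genotype for 6 of the 8 channel genes, and Tbx20EH1Mut replicate 3 the lowest of its genotype for 6 of 8. Leave-one-out fits and offsets for length and GC content are therefore given beside the results below where they moved a call or a value the most.

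**Figure D1:**
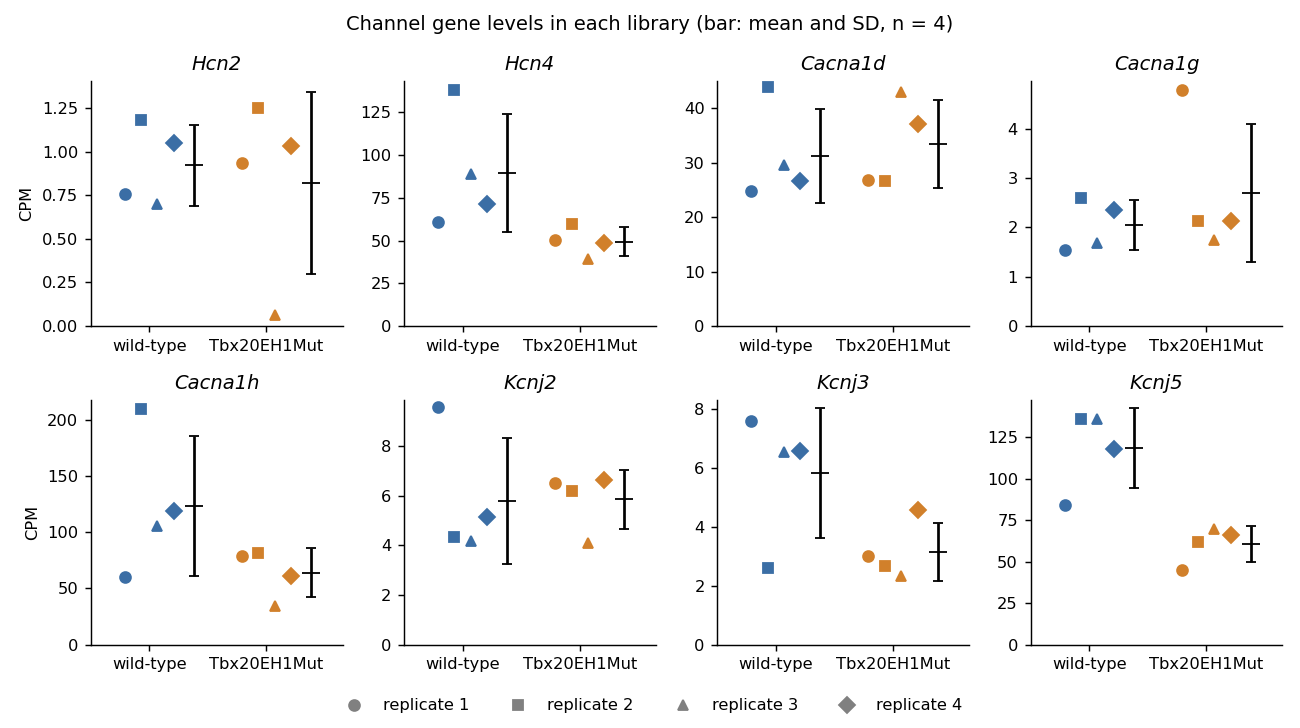
Level in CPM (y axis, linear from 0, its own scale for each gene) of the 8 channel genes in the 4 wild-type (blue) and 4 Tbx20EH1Mut (orange) libraries. Symbols mark the replicate number, and the bars give the mean and SD of each genotype. Kcnj5 and Hcn4 are the genes whose 4 Tbx20EH1Mut libraries all lie below the 4 wild-type libraries.

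Hcn4 encodes the main pacemaker channel of the early heart and of the later sinoatrial node. The gene lies on chr9:58823412-58863175 (GRCm38, plus strand) with 6118 exon bases. Wild-type replicates 1 to 4 held 60.6, 138, 88.7 and 71.2 CPM, and Tbx20EH1Mut replicates 1 to 4 held 50.1, 59.7, 39.2 and 48.5 CPM. The groups did not overlap, but the lowest wild-type and the highest Tbx20EH1Mut library were nearly equal, and wild-type replicate 2 stood well above the others. The mean was 89.7 ± 34.4 CPM in wild-type and 49.4 ± 8.41 CPM in Tbx20EH1Mut hearts (SD, n = 4 each). The log2 fold change was -0.86 (SE 0.24, 95% interval -1.40 to -0.33, adjusted p = 0.0246, edgeR's quasi-likelihood test).

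Hcn4 was called in 4 of the 8 fits with a library left out. The adjusted p (edgeR) then ranged from 0.00750 to 0.0673, and it was above 0.05 without wild-type replicate 3 (0.0559) and without Tbx20EH1Mut replicates 1 (0.0548), 3 (0.0539) and 4 (0.0673). The log2 fold changes of these 4 fits were -0.88, -0.86, -0.75 and -0.85. Leaving out wild-type replicate 2 brought Hcn4 to -0.56, with an adjusted p (edgeR) of 0.0379. With the offset for gene length it was -0.72 (adjusted p = 0.0178) and with that for GC content -0.83 (adjusted p = 0.0143), both from edgeR's quasi-likelihood test. Relative to the geometric mean of the 10 cardiomyocyte markers, Hcn4 differed by -0.79 log2 units, the groups overlapped and the exact permutation test gave p = 0.114.

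Hcn2, an HCN channel that is more prominent in working myocardium and brain, was low in all libraries (chr10:79716634-79736108, plus strand). Replicates 1 to 4 of the wild-type held 0.759, 1.18, 0.697 and 1.05 CPM and the Tbx20EH1Mut libraries 0.932, 1.25, 0.0625 and 1.03 CPM. Tbx20EH1Mut replicate 3 held 2 counts of Hcn2, where the other libraries held 25 to 58, and the groups overlapped. Its log2 fold change of -0.16 had a 95% interval of -1.52 to 1.19 and became 0.23 without that library, -0.42 with the GC content offset, -0.46 with the replicate numbers as a block and -0.63 with limma-voom. None of these fits called Hcn2, and a difference was not detectable in these libraries.

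The T-type calcium channel Cacna1h (Cav3.2), a low-voltage channel of the embryonic myocardium, lies on chr17:25374285-25433783 (minus strand). In the wild-type libraries, by replicate number, Cacna1h stood at 60.6, 210, 106 and 119 CPM, and in the Tbx20EH1Mut libraries at 79.1, 81.5, 34.0 and 61.4 CPM. Wild-type replicate 1 fell within the range of the Tbx20EH1Mut libraries, and the other 3 wild-type libraries lay above all of them. The means were 124 ± 62.5 and 64.0 ± 21.9 CPM, and the log2 fold change was -0.95 (SE 0.36, 95% interval -1.76 to -0.14, adjusted p = 0.0723, edgeR). This difference therefore did not pass the test, although its interval does not reach 0.

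The call for Cacna1h changed with the settings and followed single libraries. It passed with DESeq2 (adjusted p = 0.0248), with the GC content offset (0.0393) and without wild-type replicate 1 (0.0167, both edgeR). With the gene length offset the log2 fold change was -0.79 (adjusted p = 0.0753), and it was -0.56 once wild-type replicate 2 was left out (adjusted p = 0.213, edgeR). The libraries with the highest and lowest Cacna1h, wild-type replicate 2 and Tbx20EH1Mut replicate 3, were also those with the highest and lowest length trend. Cacna1h has 9763 exon bases, and its longest transcript is richer in G and C than 95.4% of genes tested. The part of these trends beyond the offsets was not tested.

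**Figure D2:**
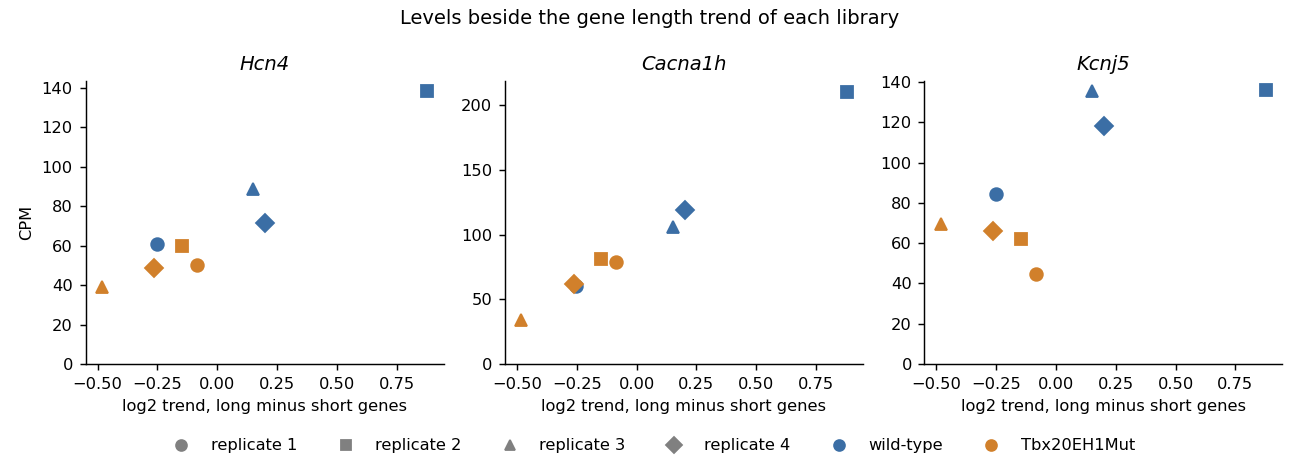
Level of Hcn4, Cacna1h and Kcnj5 in CPM (y axis, linear from 0) against the gene length trend of the same library (x axis, log2 difference between genes of 8769 and 1000 exon bases). Each point is 1 library, blue for wild-type and orange for Tbx20EH1Mut; wild-type replicate 2 lies far to the right at 0.88, and for Kcnj5 the orange points stay at or below 69.6 CPM over their whole span of the trend.

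The other T-type gene, Cacna1g (Cav3.1, chr11:94408391-94474198, minus strand), was low in all libraries. By replicate number, the wild-type libraries had 1.55, 2.59, 1.67 and 2.36 CPM and the Tbx20EH1Mut libraries 4.79, 2.12, 1.75 and 2.12 CPM. Tbx20EH1Mut replicate 1 stood alone above all others, while the other 3 lay inside the wild-type range. A log2 fold change of 0.40 was fitted (95% interval -0.39 to 1.19, adjusted p = 0.412, edgeR's quasi-likelihood test), and -0.02 without that library.

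Set against each other per exon length, Cacna1h exceeded Cacna1g in every library. The ratio was 40.7, 84.2, 65.7 and 52.5 in wild-type and 17.1, 39.8, 20.2 and 30.1 in Tbx20EH1Mut replicates 1 to 4. The groups did not overlap, although the highest Tbx20EH1Mut library lay just below the lowest wild-type one. The log2 ratio was lower by 1.21 (SE 0.36) in Tbx20EH1Mut hearts, with p = 0.0286 in the exact two-sided permutation test, the smallest it can give with 4 against 4 libraries, and 0.0857 after Benjamini-Hochberg adjustment over the 3 pairs compared. The ratios of Hcn4 to Hcn2 and of Kcnj5 to Kcnj3 overlapped between the genotypes, with p = 1.0 and 0.80 in the same exact test. For Hcn4 to Hcn2 the overlap rested on Tbx20EH1Mut replicate 3, at 327 with 2 counts of Hcn2. Tbx20EH1Mut replicates 1, 2 and 4 stood at 28.1, 25.0 and 24.5, below the wild-type range of 35.5 to 66.5. For Kcnj5 to Kcnj3, wild-type replicate 2 was highest at 58.0. Wild-type replicates 1, 3 and 4 stood at 12.4, 23.1 and 19.9, against 16.0 to 33.1 in Tbx20EH1Mut hearts.

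Cacna1d (Cav1.3), an L-type channel of pacemaking cells that opens at more negative voltages than other L-type channels, lies on chr14:30039949-30491156 (minus strand). Over replicates 1 to 4, wild-type hearts gave 24.8, 44.0, 29.7 and 26.7 CPM and the Tbx20EH1Mut libraries 26.8, 26.7, 43.0 and 37.1 CPM. The groups overlapped almost completely. Its log2 fold change was 0.09 (SE 0.22, adjusted p = 0.769, edgeR), and its 95% interval of -0.39 to 0.57 is the narrowest of the 6 genes that were not called. A fall of the size seen for Kcnj5 lies outside this interval. With the gene length offset the log2 fold change was 0.24, and without wild-type replicate 2 it was 0.31, neither called. Tbx20EH1Mut replicate 3, the lowest of its genotype for Hcn4, Cacna1g and Cacna1h, was the highest for Cacna1d. Cacna1d shares 518 exon bases with Chdh on the opposite strand, which held 353 counts over all libraries against 10505 for Cacna1d.

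Kcnj5 encodes GIRK4, which with GIRK1 forms the muscarinic potassium channel of atrial and nodal cells. The gene lies on chr9:32314707-32344350 (minus strand) with 4685 exon bases. The wild-type libraries, in the order of their replicate numbers, held 84.2, 136, 136 and 118 CPM and the Tbx20EH1Mut libraries 44.9, 62.0, 69.6 and 66.1 CPM. Every Tbx20EH1Mut library was below every wild-type library. The means were 118 ± 24.3 and 60.6 ± 10.9 CPM (SD, n = 4 each). The log2 fold change was -0.97 (SE 0.18, 95% interval -1.37 to -0.56, adjusted p = 0.00450, edgeR's quasi-likelihood test).

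Of the 8 genes, Kcnj5 was called in all 8 fits with a library left out and in all 12 other fits run over the full set of libraries. With a library left out, the log2 fold change lay between -1.10 and -0.84 and the adjusted p (edgeR) was at most 0.0179. Relative to the cardiomyocyte markers the difference was -0.95 log2 units, with no overlap between the groups (exact permutation p = 0.0286, and 0.229 after adjustment over the 8 genes). Only Kcnj5 and Hcn4 showed no overlap between the CPM of the genotypes, where 30.5% of all genes showed none in either direction and 15.7% had every Tbx20EH1Mut library below every wild-type one. The exact permutation test on the difference in mean CPM gave p = 0.0286 for each and 0.114 after adjustment over the 8 genes.

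Kcnj3, the GIRK1 partner of Kcnj5, was lower in level. It lies on chr2:55435970-55598145 (plus strand). The wild-type libraries, in the order of their replicate numbers, held 7.59, 2.61, 6.53 and 6.59 CPM and the Tbx20EH1Mut libraries 3.004, 2.68, 2.34 and 4.59 CPM. Wild-type replicate 2 lay among the Tbx20EH1Mut libraries and the other 3 lay above them. On the log2 scale the difference was -0.88 (SE 0.34, 95% interval -1.64 to -0.13, adjusted p = 0.0745, edgeR). It passed the test without wild-type replicate 2 (-1.12, adjusted p = 0.0137, edgeR) and with DESeq2 (adjusted p = 0.0358). DESeq2 called 4 of the 8 channel genes lower (Hcn4, Cacna1h, Kcnj3 and Kcnj5), where it called 19.2% of all 17156 genes with an adjusted p lower. A gene on the opposite strand, Gm26794, shares 31.1% of the exon bases of Kcnj3 and held 79 counts over all libraries against 1473 for Kcnj3. The sources used here do not give whether strand was used in the counting.

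Kcnj2 (Kir2.1) did not separate the genotypes. It lies on chr11:111066164-111076821 (plus strand). The wild-type libraries, in the order of their replicate numbers, held 9.56, 4.32, 4.18 and 5.13 CPM and the Tbx20EH1Mut libraries 6.53, 6.19, 4.09 and 6.63 CPM. Wild-type replicate 1 was the highest library, and the others shared a narrow range. Its log2 fold change was 0.02 with a 95% interval of -0.63 to 0.67 (adjusted p = 0.964, edgeR's quasi-likelihood test). It was 0.36 without wild-type replicate 1 (adjusted p = 0.220, edgeR) and between -0.11 and 0.16 without any other library.

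**Figure D3:**
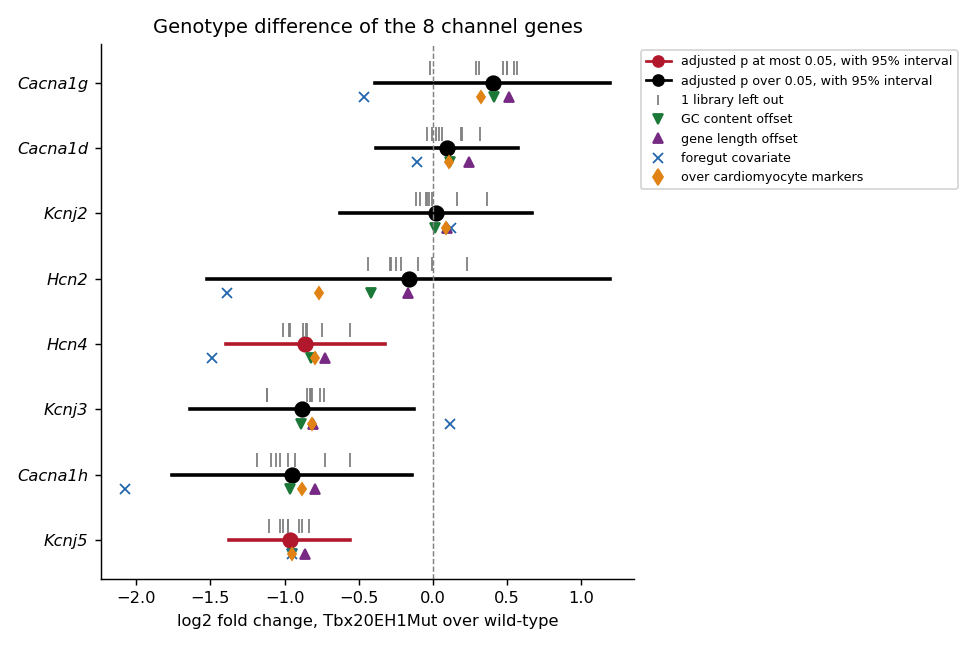
Log2 fold change of Tbx20EH1Mut over wild-type (x axis) for each channel gene (y axis). Circles and lines give the estimate and its 95% interval, in red where the adjusted p is at most 0.05; grey ticks above give the 8 fits with 1 library left out, and the symbols below give 4 other settings. Kcnj5 keeps a value between -1.10 and -0.84 when a library is left out, while Hcn4 and Cacna1h move to -0.56 without wild-type replicate 2.

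The covariate built from the foregut markers moved several genes. This covariate is the mean log2 CPM of the 10 markers. Of these, 6 were called higher in Tbx20EH1Mut hearts, but Epcam, Cdh1, Foxa1, Foxa2, Cldn6 and Sox2 overlapped between the genotypes. Whether the covariate itself overlaps was not tested, and its effect and that of genotype cannot be cleanly told apart. With this covariate, Kcnj5 was -0.95 (adjusted p = 0.0268), Hcn4 -1.49 (adjusted p = 0.00449) and Cacna1h -2.07 (adjusted p = 0.00418) in edgeR's quasi-likelihood test. Hcn2 went from -0.16 to -1.39, Kcnj3 from -0.88 to 0.12, Cacna1g from 0.40 to -0.47 and Cacna1d from 0.09 to -0.11, none of them called.

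Levels of different genes were compared as RPKM, which is CPM divided by the exon length in kilobases. In wild-type hearts the order was Kcnj5 (25.3 ± 5.19), Hcn4 (14.7 ± 5.63), Cacna1h (12.7 ± 6.40), Cacna1d (3.38 ± 0.941), Kcnj3 (1.12 ± 0.422), Kcnj2 (1.06 ± 0.467), Hcn2 (0.288 ± 0.0723) and Cacna1g (0.201 ± 0.0502). Kcnj5 was above Hcn4 in 4 of 4 libraries and Hcn4 above Cacna1h in 3 of 4, but the ranges of these neighbours overlapped. The ranges were apart between Cacna1h and Cacna1d, between Cacna1d and Kcnj3, and between Kcnj2 and Hcn2. Kcnj2 and Kcnj3 changed places when the longest coding length was used in place of exon length.

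In Tbx20EH1Mut hearts the first 4 genes kept their order, at 12.9 ± 2.34 for Kcnj5, 8.07 ± 1.37 for Hcn4, 6.56 ± 2.24 for Cacna1h and 3.61 ± 0.874 RPKM for Cacna1d. The ranges of Cacna1h and Cacna1d, apart in wild-type hearts, overlapped here. Kcnj2 (1.08), Kcnj3 (0.605), Cacna1g (0.266) and Hcn2 (0.256 RPKM) followed, and only Cacna1d and Kcnj2 had ranges apart among neighbours.

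**Figure D4:**
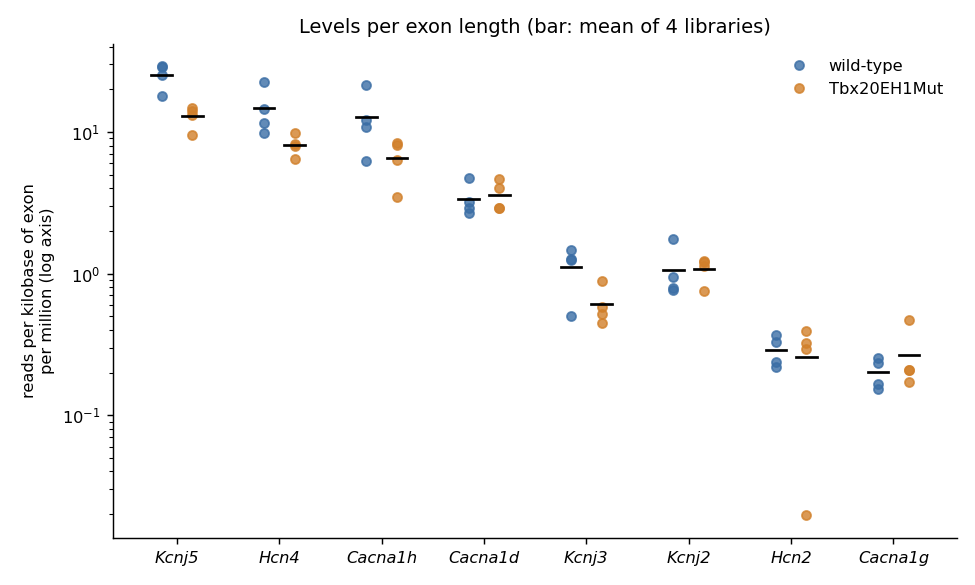
Level in RPKM (y axis, log scale) of the 8 channel genes, ordered by their wild-type mean. Points are single libraries, blue for wild-type and orange for Tbx20EH1Mut, and bars are means of 4 libraries. The 3 highest genes, Kcnj5, Hcn4 and Cacna1h, have means of 12.7 RPKM or more in wild-type and of 12.9 or less in Tbx20EH1Mut hearts.

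Genes whose levels ran most like those of Hcn4 over the 8 libraries were found by the root mean square difference of centred log2 CPM over the 10514 genes that averaged 5 CPM or more. They were Clec16a (0.101), Mtor (0.101), Gak (0.113), Usp24 (0.115) and Stk35 (0.119), against a median of 0.541 over all genes. These 5 genes have 6195 to 12350 exon bases, and the shortest of them, Stk35, is longer than 77.9% of genes tested. Without wild-type replicate 2, none of the 5 was still among the closest 5, and without any other single library between 2 and 4 were.

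The channel genes were then set beside 6 lists of related genes, which hold 102 genes, 88 of them tested. Their counts are read against the 14.0% of all genes called higher and the 15.3% called lower. Among other pore subunits of the same families, 1 of 13 tested genes rose and 3 fell, with a median log2 fold change of 0.07. The 3 that fell, Kcnj6, Kcnj11 and Kcnj12, are among the 7 inward rectifier genes of the list that were tested, and the other 4 stood between 0.07 and 0.78 (Kcnj14 and Kcnj4, named after their values were seen) without being called. The KATP channel pore Kcnj11 (Kir6.2) went from 19.2 ± 3.24 to 7.87 ± 1.61 CPM (-1.28 on the log2 scale, adjusted p = 0.00149), Kcnj12 (Kir2.2) changed by -1.54 (adjusted p = 0.0139) and the GIRK2 gene Kcnj6 by -1.42 (adjusted p = 0.00295). The neuronal P/Q-type calcium channel gene Cacna1a rose by 0.68 (adjusted p = 0.0295; all edgeR's quasi-likelihood test).

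Among accessory subunits, 2 of 16 tested genes rose and 1 fell, with a median of -0.06. The gene that fell was Abcc9, the SUR2 subunit that assembles with Kir6 pores, which went from 49.4 ± 8.17 to 22.5 ± 3.14 CPM (-1.13 on the log2 scale, adjusted p = 0.000815, edgeR). The calcium channel subunit Cacna2d1 rose from 19.4 ± 4.07 to 31.0 ± 1.97 CPM (0.67), and Cacng4 rose by 1.60 from a level of 0.941 CPM.

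Other potassium channels gave 5 higher and 3 lower of 22 tested, with a median of 0.25. With a library left out the list gave 1 to 4 higher (1 without wild-type replicate 3 or Tbx20EH1Mut replicate 4) and 2 to 6 lower (6 without wild-type replicate 1). Kcne3, a single-pass subunit that modulates voltage-gated potassium channels and is abundant in epithelia, went from 0.340 ± 0.117 to 8.96 ± 2.34 CPM (4.70 on the log2 scale, adjusted p = 2.41e-05, edgeR). Of the 10 foregut epithelium markers, 6 were called higher in the same comparison. With the covariate built from the foregut markers, the log2 fold change of Kcne3 was 3.96 (adjusted p = 0.00150, edgeR). Kcna5 (Kv1.5), which carries the ultrarapid delayed rectifier of atrial cells, fell from 26.1 ± 6.01 to 10.03 ± 1.25 CPM (-1.38, adjusted p = 0.000758, edgeR). The background potassium channel Kcnk2 (TREK1) rose by 0.86 and the calcium-activated channel Kcnn1 (SK1) by 0.83.

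Among sodium channel beta subunits and FGF homologous factors, which bind the sodium channel pore, 2 of 6 tested genes rose and 1 fell. Scn4b went from 10.7 ± 1.56 to 3.14 ± 0.902 CPM (-1.76 on the log2 scale, adjusted p = 0.000894), and Fgf11 from 3.12 ± 0.334 to 13.6 ± 3.33 CPM (2.12, adjusted p = 0.000204, both edgeR). Fgf13 rose by 0.39. The median of the list was -0.08.

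Genes of autonomic and cyclic AMP input, which act on HCN and GIRK channels, gave 4 higher and 7 lower of 19 tested, with a median of -0.15. With a library left out it gave 2 to 4 higher and 2 to 8 lower, and 2 lower without Tbx20EH1Mut replicate 4. The adenylyl cyclase Adcy3 fell from 7.85 ± 3.32 to 2.52 ± 1.37 CPM (-1.63 on the log2 scale, adjusted p = 0.0202), and the phosphodiesterase Pde4b rose by 1.15 (adjusted p = 0.000191) and Pde4d stood at -0.92 (adjusted p = 0.0438, all edgeR). Popdc3, a member of a family of cyclic AMP-binding membrane proteins, fell by 1.05 on the log2 scale.

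Among sinoatrial and conduction transcription factors, 4 of 12 rose and 2 fell, with a median of 0.12. Shox2, which keeps sinus venosus cells in a pacemaker program, went from 16.4 ± 9.78 to 3.94 ± 2.40 CPM (-2.06 on the log2 scale, adjusted p = 0.0180). Isl1, a factor of second heart field progenitors and of the sinoatrial node, went from 19.8 ± 6.67 to 120 ± 39.9 CPM (2.60, adjusted p = 0.000378). Tbx5 changed by -0.80 (adjusted p = 0.000992) and the ventricular conduction factor Irx3 by 1.34 (adjusted p = 0.000301, all edgeR's quasi-likelihood test). Each of these 4 genes had libraries that did not overlap between the genotypes.

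With a library left out, the counts higher and lower ran over 0 to 1 and 3 to 4 for the other pore subunits, 1 to 4 and 1 to 2 for the accessory subunits, 1 to 2 and 1 to 2 for the sodium channel partners, and 2 to 5 and 1 to 2 for the transcription factors. Of the 22 genes named from these lists, 12 were called in every fit with a library left out and in every other setting that could be run (Kcnj6, Kcnj11, Kcnj12, Abcc9, Kcna5, Kcne3, Scn4b, Fgf11, Pde4b, Tbx5, Isl1 and Irx3). Cacna2d1 and Popdc3 were lost only with the foregut covariate, at log2 fold changes of 0.68 and -0.71. With the same covariate Shox2 (-0.60, adjusted p = 0.498, edgeR), Cacng4 (0.43) and Kcnn1 (0.36) were closer to 0 and not called, and Kcnk2 (0.94) and Fgf13 (0.52) were not closer to 0 and not called. The calls for Kcnk2, Kcnn1, Pde4d and Fgf13 were each lost in 7 of 8 fits with a library left out and those for Cacna1a and Cacng4 in 5 of 8. Shox2 was also lost without wild-type replicate 3 (adjusted p = 0.0516) or Tbx20EH1Mut replicate 4 (0.0586), and Adcy3 without wild-type replicate 2 (0.0539) or Tbx20EH1Mut replicate 4 (0.0647; all edgeR).

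**Figure D5:**
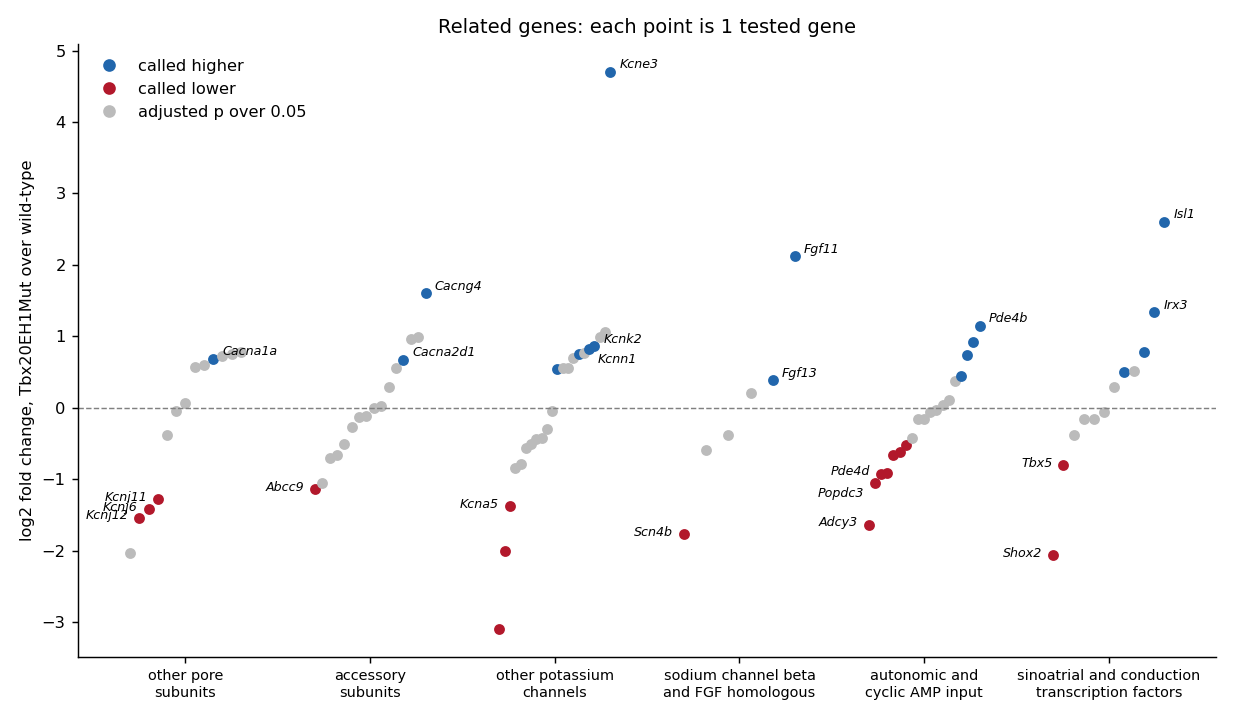
Log2 fold change of Tbx20EH1Mut over wild-type (y axis) for the tested genes of 6 lists (x axis), each point 1 gene. Blue points were called higher, red points lower and grey points had an adjusted p over 0.05; named genes are labelled. Kcne3 stands highest at 4.70, and the 3 inward rectifier pores called lower lie between -1.54 and -1.28.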

How the data were processed

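RNA was measured in 4 wild-type and 4 Tbx20EH1Mut libraries of E9.5 hearts. The authors deposited raw counts per Ensembl gene and library, not normalized. The submitters' processing notes name Trimmomatic 0.36 and STAR 2.5.2b with GRCm38 (mm10), and reads were paired. The counting tool and strand setting are not given in the sources used here. Here, genes with enough counts (filterByExpr) were scaled by TMM and tested with edgeR 4.0.16 (glmQLFit, glmQLFTest, R 4.3.3), genotype as the only term, with Benjamini-Hochberg adjustment over 17163 genes and a threshold of 0.05. Intervals are at 95%. Single values were tested by the exact two-sided permutation test over 70 arrangements of the libraries. Symbols came from GENCODE M21, and 48970 of 49315 genes had one. The channel genes and the gene lists were chosen with earlier results of these data known. Named genes were the 8 channel genes, in each related list up to 4 called genes with the largest change and a mean of at least 1 CPM, and the 5 genes most like Hcn4. Alternatives were DESeq2 1.42.0, limma-voom (limma 3.58.1), other scalings and filters, a replicate block, a foregut marker covariate, levels over cardiomyocyte markers and leaving out each library. Offsets for GC content (known for 99.7% of genes tested) and gene length, and the order by coding length, were chosen after seeing the data. A gene of a related list is not reported here. The fit was tested on simulated data. Each library is a separate pool of hearts, and replicates differed by more than sampling noise.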

Additional observations from a re-analysis of the deposited data

Results flagged for a closer look

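In 70 sets of 4 libraries (a named gene in a genotype), 2 held a sample far from the other 3, and chance alone marks about 1 in 20 sets. For Cacna1g, Tbx20EH1Mut replicate 1 stood at 4.79 CPM, above 1.75 to 2.12 CPM in the other 3. For Kcnj6, wild-type replicate 3 was lowest at 2.47 CPM, and the other 3 were so close together, at 2.73 to 2.76 CPM, that the small gap stood out.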

How the results depend on the processing

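Kcnj5 was called in every fit across all genes. Over the cardiomyocyte markers its unadjusted exact permutation p was below 0.05 but not after adjustment over the 8 genes. Hcn4 was called in every fit on all 8 libraries, but was -0.79 and not called over the cardiomyocyte markers, and with upper-quartile scaling its mean difference of -35.3 CPM missed the exact permutation test. Cacna1h was called with DESeq2 (-0.95), without a filter except for 1 count (-0.97), with the foregut covariate (-2.07), with the GC content offset (-0.97), with that offset and the replicate block (-0.91), and with GC trends within genotypes (-0.96). Kcnj3 was called with DESeq2 (-0.89), which called 4 channel genes and 19.2% of all genes lower. The foregut covariate turned Kcnj3 (0.12), Cacna1g (-0.47) and Cacna1d (-0.11).

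With single libraries left out, log2 fold changes ran from -0.44 to 0.23 for Hcn2, -1.01 to -0.56 for Hcn4, -0.0401 to 0.31 for Cacna1d, -0.0229 to 0.57 for Cacna1g, -1.18 to -0.56 for Cacna1h, -0.11 to 0.36 for Kcnj2 and -1.12 to -0.74 for Kcnj3. Between 1 and 3 channel genes were called lower, and 3001 to 6586 of all genes were called (5024 with all libraries). Of the 6 related lists, 18 genes were called higher and 17 lower, and 7 to 16 and 11 to 23 with a library left out. By coding length, Kcnj2 ranked 5 and Kcnj3 ranked 6 in wild-type hearts.

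Libraries with the same replicate number did not deviate together (correlations of -0.24, 0.32, 0.05 and 0.06, and 0 of 4 closest to their own number). The replicate block, with or without the GC offset, called 11 list genes higher, and alone it called 3945 genes and changed no call among the 8 channel genes. The cause of these changes was not tested. Ordering by the coding length of RefSeq proteins was not run. At 2 to 58 counts for Hcn2 per library and 51 to 185 for Cacna1g, these are the least deeply counted of the channel genes.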
